A study of Homo sapiens with 4 samples.

Results

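Peaks of N6-methyladenosine (m6A) that were called in the 3′ UTRs of control A549 cells and had no counterpart in the list from YTHDF2-knockdown cells are described here. They were selected on the peak calls themselves: a distinct peak of the control list, annotated as 3′ UTR by the authors, none of whose exonic blocks overlapped a block of a knockdown peak on the same strand by 1 nt or more. The rule gave 7167 peaks in 4781 genes, of 18357 control peaks annotated as 3′ UTR and 31057 distinct control peaks in all. That is 39.0% of the 3′ UTR peaks (95% Wilson interval 38.3 to 39.8), beside 44.1% of control peaks of every location that met no knockdown peak. The deposited lists are longer than the peak sets the study describes, and the step between them was not given in the sources used here, so control-only refers to the deposited lists.

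A549 is an established human lung adenocarcinoma cell line. Cells with the pLKO.1 vector control (shNC) were compared with cells carrying an shRNA against YTHDF2 (shY2-2), all grown in the same medium. For each, poly(A) RNA was cut into fragments, 1 library was made from RNA pulled down with an antibody to m6A (IP) and 1 from untreated fragments (input), so there were 4 libraries and no replicates. Only 1 shRNA was sequenced, and the calls of a list rest on its own IP and input pair. Every value below therefore compares libraries, no p-value between conditions can be given, and intervals cover only the counting of peaks or genes. Read totals were not analysed here, so sequencing depth is unknown, and a place without the mark and a place covered too thinly for a call cannot be told apart.

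YTHDF2 itself stood at 3.56 FPKM in shNC_input and 1.02 FPKM in shY2-2_input. The log2 FPKM ratio was −1.18 with a pseudocount of 1, which is used below unless stated and makes changes of low genes look smaller. The epithelial keratins KRT8 and KRT18 were at 523 and 388 FPKM in shNC_input and at 322 and 281 FPKM in shY2-2_input. The haematopoietic marker PTPRC was at 0.0999 and 0.0394 FPKM, and the alveolar type II marker SFTPC, which the tissue of origin expresses, at 0.0303 and 0.0670 FPKM.

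m6A is written on nascent mRNA by a complex built around METTL3 and METTL14, on adenosines of a short consensus whose best-known core is GGAC. It gathers around stop codons and along long last exons, so the 3′ UTR holds much of it. YTHDF2 is a cytoplasmic reader: it binds the modified base and brings the CCR4-NOT deadenylase to the transcript, which shortens the poly(A) tail and leads to decay. Other readers of the YTH family, the IGF2BP proteins and the erasers FTO and ALKBH5 act on the same mark.

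The sequences that follow are shown because each is the GGAC core closest to the centre of a control-only peak with a high fold enrichment, or of the only such peak in a gene the study followed up, CD44. Each is 25 nt of the GRCh38 reference on the strand of the gene, read 5′ to 3′, with the GGAC core in capitals.
HPS1, chr10:98416315-98416339, minus strand: ccactgttcaGGACccctgcttttg
DHODH, chr16:72025718-72025742, plus strand: gcaacagaggGGACatccccagctc
ZCCHC24, chr10:79384507-79384531, minus strand: ctgccactgaGGACtccccgagcac
TICAM1, chr19:4816131-4816155, minus strand: tgtgccctgtGGACagtggaagatg
ZNF121, chr19:9562863-9562887, minus strand: taaagaggcaGGACtttactgttta
ERBB3, chr12:56103221-56103245, plus strand: aaaaataactGGACatctttgtgta
MAP6D1, chr3:183817170-183817194, minus strand: atgcaccgatGGACttggcacaccc
TET2, chr4:105277267-105277291, plus strand: tttaaaatgtGGACattttaaaggc
CD44, chr11:35231193-35231217, plus strand: gaaagaaactGGACattaggccact

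All of these sites lie in the last exon, in the 3′ UTR of the reference transcript. Their modified A would stand from 96 nt (TICAM1) to 3065 nt (ZNF121) after the stop codon. In ZCCHC24, MAP6D1 and ZNF121 the core is followed by T, the form GGACT, and in DHODH, TICAM1, ERBB3, TET2 and CD44 by A. A core is a match of letters, and no base of it was shown to carry the mark.

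The control-only 3′ UTR peaks were short and weakly called. Their median deposited fold enrichment of IP over input was 2.10 (95% interval of the median 2.07 to 2.12), from 1.07 to 28.2. Shared 3′ UTR peaks, those of the control list that did overlap a knockdown peak, had a median of 2.25 (2.23 to 2.29) and reached 87.0. The mirror set of 4819 peaks found in the knockdown list only, 29.6% of its 16264 3′ UTR peaks, had a median of 2.78 (2.70 to 2.81). The median exonic length was 210 nt in the control-only and the knockdown-only set and 361 nt in the shared set.

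The deposited lists go up to a p-value of 0.0490, and 4838 of the 7167 control-only peaks (67.5%) had an FDR above 0.05. An FDR of at most 0.05 was reached by 2329 of them (32.5%), beside 78.2% of shared and 20.5% of knockdown-only peaks, and one of at most 0.001 by 555 (7.74%), beside 53.9% and 4.86%. A fold enrichment of 4 or more was held by 19.3% of control-only, 15.6% of shared and 35.1% of knockdown-only peaks. Both one-sided sets were thus shorter than the shared set and higher in FDR. Calls in both lists chose the sets, so these values describe the choice.

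**Figure D1:**
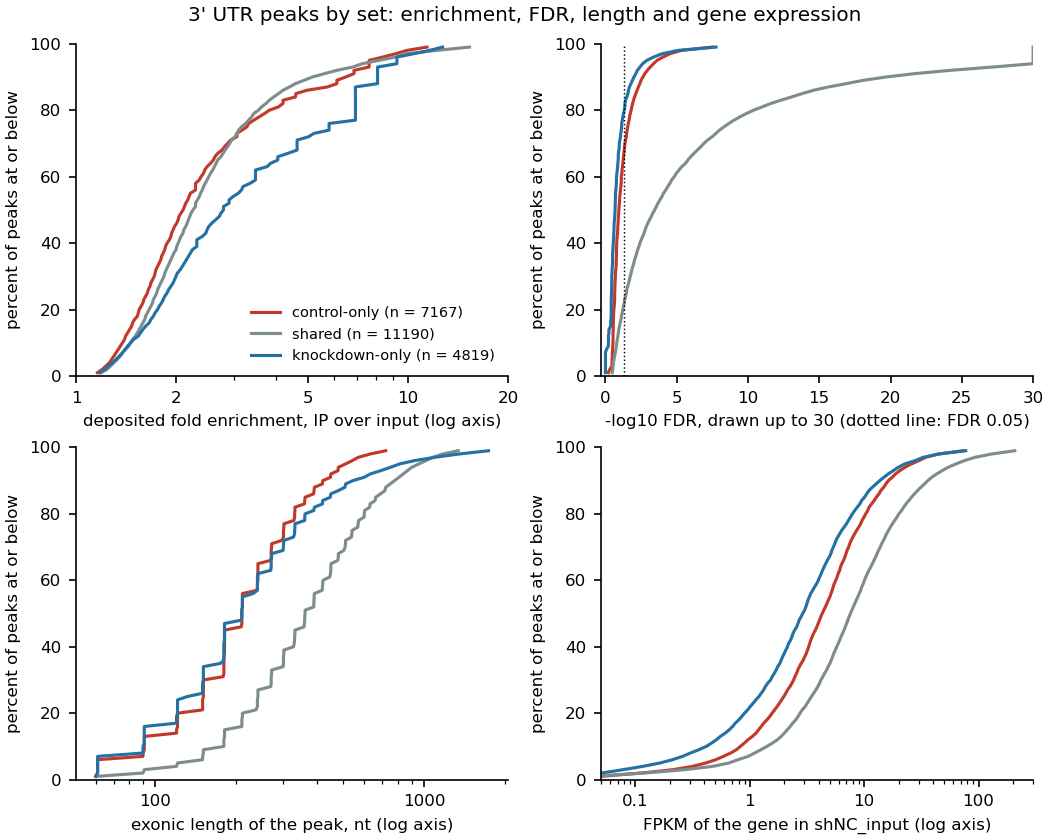
Cumulative distributions for control-only, shared and knockdown-only 3′ UTR peaks, with the percent of peaks at or below each value on the vertical axes. The horizontal axes are the fold enrichment of IP over input, −log10 FDR (drawn up to 30, with a dotted line at FDR 0.05), the exonic length in nt and the FPKM of the gene in shNC_input; at the middle of the curves both one-sided sets lie left of the shared set in −log10 FDR, length and FPKM, with median lengths of 210, 361 and 210 nt for control-only, shared and knockdown-only peaks.

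High fold enrichments came in steps in both one-sided sets. The 105 control-only peaks with a fold enrichment of 10 or more took 13 distinct values, the 5 commonest values covered 90 of them, and the value 10.7 stood for 32. The 184 knockdown-only peaks of that height also took 13 distinct values, of which the 5 commonest covered 165. Among the 334 shared peaks there were 79 distinct values, the 5 commonest covered 160, and 10.7 was again the most frequent, with 44 peaks.

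A control 3′ UTR peak was more often without a counterpart the shorter it was, the less its gene was expressed and the further it lay from the stop codon. Of peaks shorter than 150 nt, 69.2% were control-only, and of those of 600 nt or more, 7.36%. In genes under 1 FPKM in shNC_input 52.4% were control-only, in genes from 3 to 10 FPKM 41.5%, and in genes of 30 FPKM or more 16.8%. By FDR the share went from 66.5% above 0.05 to 1.39%, 15 of 1077 peaks, under 1e-20. By distance of the midpoint from the stop codon it was 28.6% within 200 nt, 36.5% from 500 to under 1000 nt and 52.1% at 2000 nt or more, and by length of the whole 3′ UTR it went from 18.2% under 500 nt to 53% at 4000 nt or more.

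Distance and expression were looked at again among peaks of like size, 250 to under 400 nt long, with an FDR of at most 0.05. The FDR was bounded only from above, so these peaks were not alike in strength. There the control-only share was 16.8% (13.8 to 20.4) within 200 nt of the stop codon and 30.0% (25.6 to 34.9) at 2000 nt or more. By expression it was 29.8% under 1 FPKM and 28.5% from 3 to 10 FPKM, then 19.5% from 10 to 30 FPKM and 8.98% at 30 FPKM or more. In the knockdown list, 6.64% (4.66 to 9.37) of peaks of that length and FDR had no control counterpart within 200 nt and 14.2% (10.7 to 18.7) at 2000 nt or more. Over all its 3′ UTR peaks these shares were 18.5% and 45.0%.

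**Figure D2:**
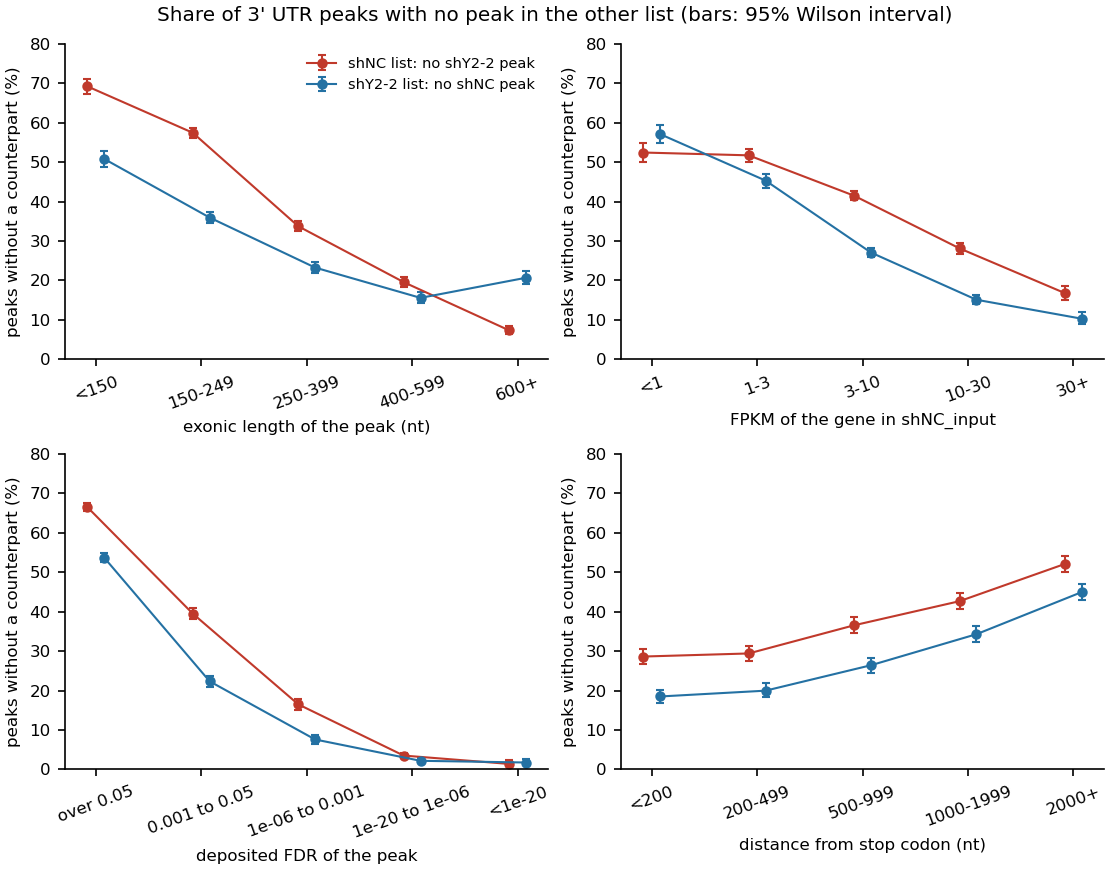
Share of 3′ UTR peaks without a counterpart in the other list, in percent on the vertical axes, by exonic length of the peak, FPKM of the gene in shNC_input, deposited FDR and distance from the stop codon; red points are the control list, blue points the knockdown list, bars 95% Wilson intervals. The control-only share goes from 69.2% to 7.36% over the length classes and from 28.6% to 52.1% over the distance classes, and the knockdown list moves the same way by distance.

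The rule took peaks that the authors annotated as 3′ UTR, so their location is in part chosen, while sequence and the place within the 3′ UTR were not used. Of the 6927 control-only peaks whose gene has a coding reference transcript, the midpoint lay in its 3′ UTR in 62.2% (61.0 to 63.3), in coding sequence in 21.5% and outside the transcript in 16.3%. The authors' label of 3′ UTR is thus wider than the 3′ UTR of the reference transcript. Where the midpoint was in the 3′ UTR (4307 peaks), it was in the last exon in 4296.

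Within the 3′ UTR, control-only peaks lay farther from the stop codon than shared peaks, in longer 3′ UTRs. Their median distance was 1048 nt (1000 to 1103), that of shared peaks 604 nt (576 to 630) and that of knockdown-only peaks 1193 nt (1147 to 1245). The median length of the 3′ UTR was 2842, 1830 and 2750 nt in that order. Measured as a fraction of the 3′ UTR, the control-only and shared medians were alike, 0.45 (0.44 to 0.47) and 0.44 (0.42 to 0.46), while the knockdown-only median was 0.57 (0.55 to 0.59). With the 3′ UTR cut into 5 equal parts, the part next to the stop codon held 26.7% of control-only, 28.1% of shared and 18.8% of knockdown-only midpoints, and the one next to the poly(A) end 20.7%, 19.8% and 26.6%. Midpoints within 200 nt of the stop codon made up 15.4% of control-only, 23.6% of shared and 12.8% of knockdown-only midpoints.

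The GGAC core was found in the central 100 nt of 28.5% (27.4 to 29.6) of the 6201 control-only peaks long enough to hold that window. It was found in 32.6% (31.8 to 33.5) of shared peaks, 26.4% (25.1 to 27.8) of knockdown-only peaks and 18.9% (18.7 to 19.1) of 133394 windows of 100 nt cut from 3′ UTRs of genes at 1 FPKM or more with no peak on either strand in either list. Read on the other strand, the same windows held GGAC in 24.2% of control-only peaks, 25.1% of shared peaks and 20.5% of peak-free windows. The control-only peaks thus lay between shared peaks and peak-free sequence. For control-only midpoints in the reference 3′ UTR, from which the peak-free windows were cut, the share was 26.1% (24.7 to 27.6). Among peaks with an FDR of at most 0.05, the GGAC share was 30.1% (28.3 to 32.0) in control-only and 31.6% (28.7 to 34.6) in knockdown-only peaks. In shared peaks it was 33.2% (32.2 to 34.2). The sets were not matched for distance from the stop codon. GC content was not the same in these sets, with a median of 45% in control-only, 48% in shared and 39% in peak-free windows, and its part in the difference was not tested.

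GGACT, a form of GGAC that these counts include, was in 10.3% of control-only, 11.4% of shared and 6.77% of peak-free windows. The full consensus named DRACH, in which A, G or T is followed by A or G, then AC, then A, C or T, is so short and loose that it was in 86.9%, 85.9% and 83.4%. The polyadenylation signal AATAAA was in 5.64% of control-only, 4.86% of shared and 7.70% of peak-free windows. The AU-rich core ATTTA was in 12.5%, 10.6% and 19.7%, and the Pumilio site TGTANATA, where N is any base, in 1.27%, 1.04% and 2.09%. All motifs were searched on the strand of the gene, and GGAC on both strands.

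The GGAC share was lower with distance from the stop codon in the control-only set, at 38.1% (34.2 to 42.2) within 200 nt and 21.1% (18.7 to 23.7) at 2000 nt or more. Shared peaks went from 38.9% to 23.8% over the same classes. Shared peaks had the higher share in all 5 distance classes, with overlapping intervals in each. The values were 26.7% (23.2 to 30.6) and 31.3% (29.0 to 33.7) from 200 to under 500 nt. High fold enrichment did not go with the core: it was in 30.4% (28.7 to 32.1) of control-only peaks with a fold enrichment under 2 and in 24.3% of those at 8 or more, 79 of 325 peaks. By FDR, the core was in 27.5% (26.1 to 28.9) of control-only peaks above 0.05. It was in 30.3% (26.5 to 34.3) of those at 0.001 or less.

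**Figure D3:**
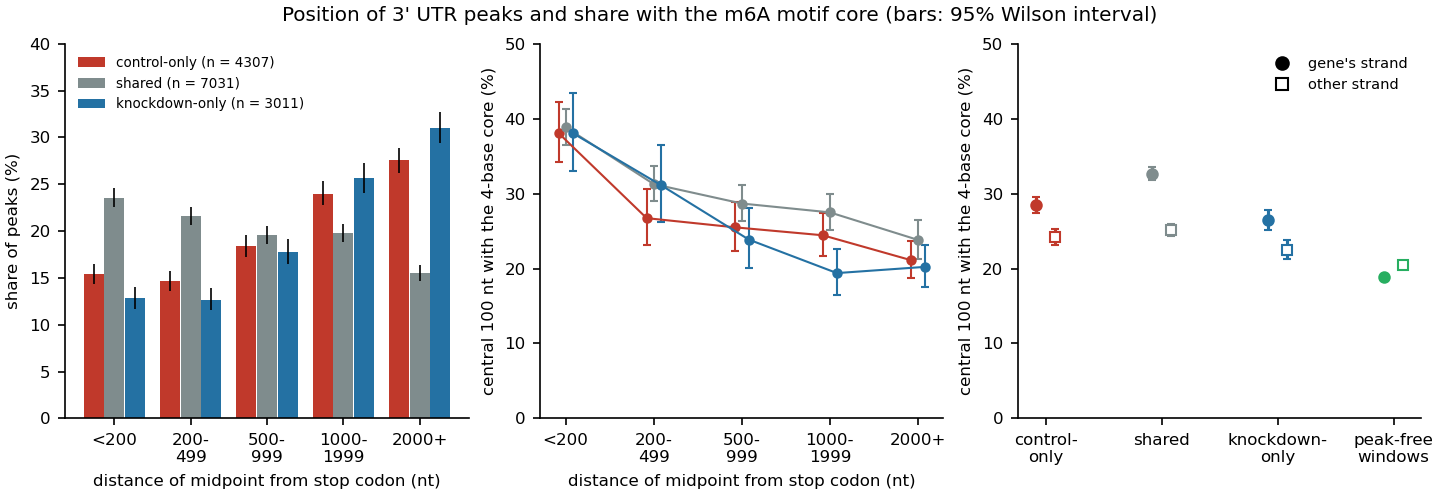
Left, share of midpoints by distance from the stop codon for control-only (red), shared (grey) and knockdown-only (blue) 3′ UTR peaks; middle, share of peaks with the GGAC core in the central 100 nt by the same distance; right, that share over all peaks and in peak-free 3′ UTR windows, filled on the gene's strand and open on the other. Vertical axes are percent and bars 95% Wilson intervals; the right panel puts control-only peaks at 28.5%, between shared peaks at 32.6% and peak-free windows at 18.9%.

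Some control-only peaks were under a knockdown peak after all, on the other strand. The strand of a peak in these files is that of the gene it was assigned to, and where genes overlap, the lists can assign one place to different genes. This held for 203 control-only peaks in 176 genes, with a median length of 388 nt and an FDR of at most 0.05 in 72.9%. They crowd at the top: 10 of the 10 control-only peaks with the lowest FDR, 19 of the first 20 and 38 of the first 50.

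In 138 of the 203 the fold enrichments of the control peak and of the knockdown peak with the lowest FDR above it were within 1.5-fold of each other, in 32 the control peak was higher by more and in 33 the knockdown peak. Examples were chosen after their values were seen. SLA2, an adaptor of antigen receptor signalling, had a control peak at 2.73-fold, and 715 of its 745 nt lay under a knockdown peak of C20orf24 at 2.58-fold. C11orf57 had one at 3.90-fold, all of it under a knockdown peak of TIMM8B, a mitochondrial import chaperone, at 3.70-fold. PROCR, the endothelial protein C receptor, had one at 1.91-fold under a peak of MMP24-AS1 at 1.95-fold. Farther apart were MARK4, a microtubule affinity-regulating kinase, at 5.96-fold under a peak at 3.74-fold, and MRPL33, a mitochondrial ribosomal protein, at 3.64-fold under a peak of RBKS at 1.94-fold. Without the 203, the control-only share was 38.4%, the median fold enrichment 2.10 and the GGAC share 28.4%.

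Outside these overlaps, the lowest FDR values among midpoints in the reference 3′ UTR, a set of 10 chosen after their values were seen, belonged mostly to well expressed genes and modest enrichments. FKBP1A, the FK506-binding prolyl isomerase, had a peak of 90 nt at 2.02-fold with an FDR of 3.16e-14. Its midpoint lay 9 nt after the stop codon, so the peak reached into coding sequence. The gene was at 33.9 and 36.3 FPKM in the control and knockdown input. DNM1, the membrane-cutting GTPase dynamin, had one at 1.67-fold (FDR 2.51e-10, 12.1 and 11.9 FPKM). PIGS, a subunit of the GPI transamidase, had 4 control-only 3′ UTR peaks and no knockdown peak in its 3′ UTR, the strongest at 1.77-fold (FDR 3.24e-10, 15.3 and 13.8 FPKM). HSP90AA1, the inducible cytosolic chaperone, had one of 61 nt at 1.16-fold (FDR 7.41e-10, 455 and 352 FPKM). FMNL2, an actin-elongating formin, had the longest of the 10, 1017 nt at 3.01-fold (FDR 9.33e-10, 9.77 and 6.52 FPKM).

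Ranked by fold enrichment instead, the first 15 genes with an FDR of at most 0.05, at least 1 FPKM in both inputs and a midpoint in the reference 3′ UTR ran from 19.8-fold to 12.2-fold. The peak of KDM4A, a histone lysine demethylase, was the highest of them at 19.8-fold, but all of its 509 nt lay under a knockdown peak of the antisense gene KDM4A-AS1 at 9.25-fold. No knockdown peak on either strand overlapped the other 14.

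TMOD3, which caps the pointed ends of actin filaments, had 4 control peaks annotated as 3′ UTR. Of these, in its 3′ UTR of 6915 nt, the one with its midpoint 4216 nt after the stop codon was control-only at 18.3-fold (FDR 0.000339). Its neighbours were in both lists, and the control peaks at 2.15-fold and 6.49-fold stood over knockdown peaks at 11.6-fold and 9.25-fold. TMOD3 was at 29.0 FPKM in shNC_input and 14.2 FPKM in shY2-2_input. HPS1, mutated in Hermansky-Pudlak syndrome, had a control-only peak at 16.0-fold that ended 29 nt from a knockdown peak at 4.63-fold, at 5.35 and 5.25 FPKM. In SURF6, a nucleolar protein gene, the control-only peak at 14.5-fold lay 148 nt from a knockdown peak at 2.38-fold.

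ATP2C1, the calcium and manganese pump of the Golgi, had 4 control-only peaks and 1 knockdown peak annotated as 3′ UTR. The highest control-only peak was at 15.3-fold, with its midpoint 1508 nt after the stop codon. UBA6, an enzyme that activates ubiquitin and FAT10, had 3, at 15.3-fold, 1.50-fold and 1.44-fold. DHODH, the pyrimidine synthesis enzyme of mitochondria, had 4 of its 5 control 3′ UTR peaks without a counterpart, the highest at 14.5-fold, at 2.80 and 4.09 FPKM. ZNF614 and ZCCHC24, with 2 and 3 control-only peaks, had no knockdown peak anywhere in the gene. ZCCHC24 held 5 GGAC cores in its 13.0-fold peak, while ZNF614 held none in its 15.3-fold peak.

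The others of the 15 were ZBTB26 at 16.0-fold and ATAD1, TUBA1C, TICAM1, WDR76 and ZNF121, at 13.0-fold or 12.2-fold. TUBA1C, an α-tubulin, was by far the most abundant, at 204 and 223 FPKM. Its peak had the same fold enrichment and FDR, 13.0-fold and 0.0089, as those of ATAD1, TICAM1 and ZCCHC24. ZCCHC24 was at 2.42 FPKM in shNC_input. The fold enrichments of all 15 peaks are among the 13 stepped values described above. TICAM1, the adaptor of Toll-like receptor signalling also called TRIF, held 6 GGAC cores in 269 nt, with the midpoint of the peak 84 nt after the stop codon. In 8 of these 15 peaks there was no GGAC anywhere.

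Of like enrichment but in genes under 1 FPKM in shY2-2_input were ERBB3, a receptor of the EGF receptor family, at 18.3-fold (0.933 and 0.695 FPKM), COBL, an actin nucleator, at 14.5-fold (1.07 and 0.742 FPKM), MAP6D1 at 14.5-fold, DENND1C at 13.7-fold and TET2, which oxidises 5-methylcytosine in DNA, at 13.0-fold (1.26 and 0.818 FPKM). Part of the DENND1C peak, 150 of 269 nt, lay under a knockdown peak of CRB3 on the other strand at 11.6-fold.

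**Figure D4:**
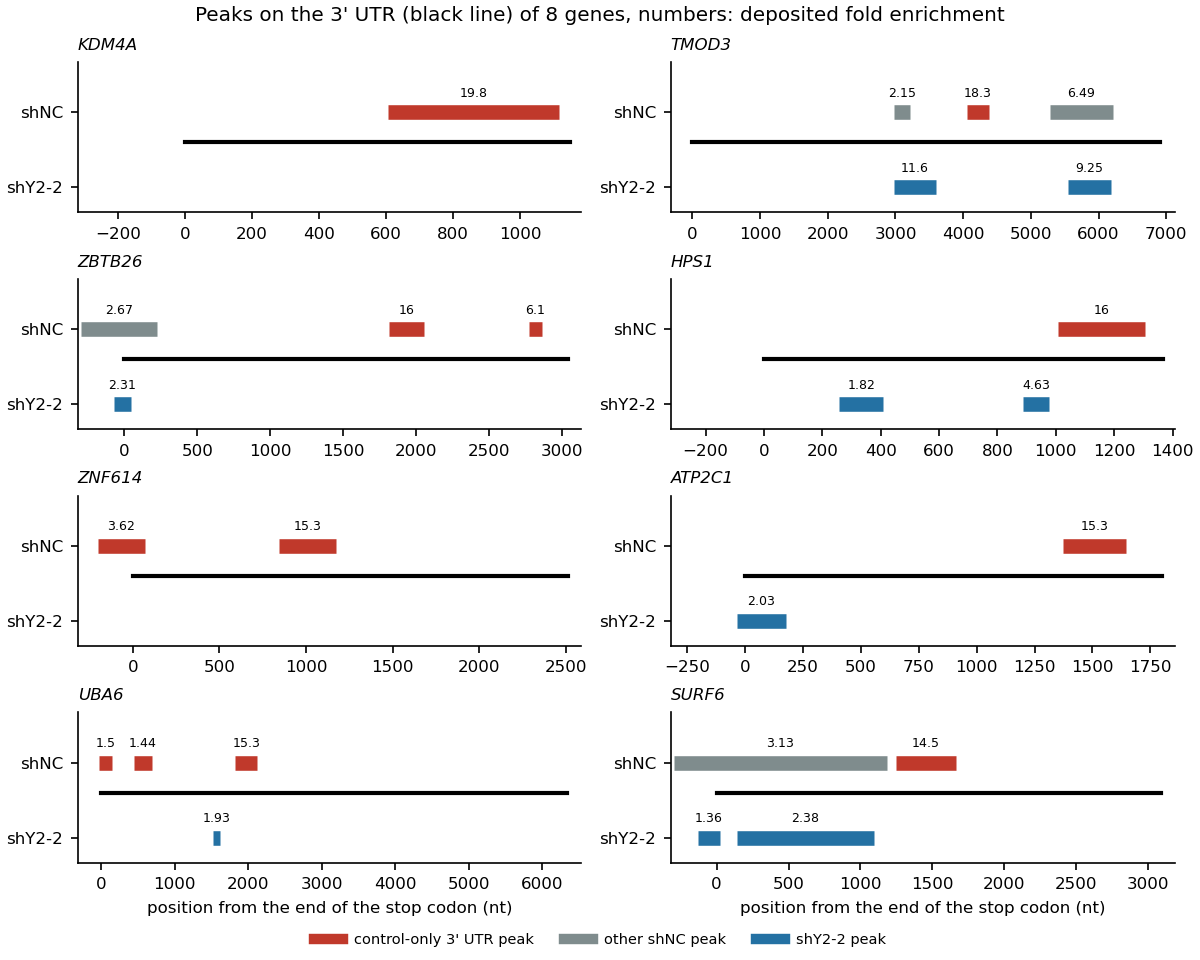
Peaks of the control list (upper row of each panel) and the knockdown list (lower row) along the 3′ UTRs of KDM4A, TMOD3, ZBTB26, HPS1, ZNF614, ATP2C1, UBA6 and SURF6, in nt from the stop codon, drawn for peaks of the gene itself from at most 300 nt before it; red is control-only, grey any other control peak, blue a knockdown peak, and numbers are deposited fold enrichments. Control-only peaks stand beside peaks of both lists in TMOD3, ZBTB26 and SURF6, and the knockdown peak that covers the KDM4A peak from the other strand is not drawn because it was assigned to KDM4A-AS1.

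Most genes with a control-only 3′ UTR peak also had a peak in knockdown cells. Of the 4781 genes, 3763 (78.7%; 77.5 to 79.8) had a knockdown peak somewhere, 3229 one in the 3′ UTR, and 2513 (52.6%) a shared 3′ UTR peak. A knockdown-only 3′ UTR peak stood beside the control-only one in 1549 genes (32.4%). The mirror set gave a like value, with a control peak somewhere in 76.9% of genes with a knockdown-only 3′ UTR peak.

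The nearest knockdown peak on the same strand was a median of 1735 nt away in the genome. It was within 100 nt for 456 control-only peaks (6.36%) and within 1000 nt for 2832 (39.5%). Closest of those named by the rule were TRIM11 and OPN3, each 1 nt from a knockdown peak, while the control peaks of IRF5, NR5A2, SRI and DTL overlapped one by 1 nt and so were counted as shared.

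No knockdown peak was called anywhere in 1018 genes (21.3%), which held 1422 control-only peaks. These had a higher median fold enrichment, 2.35 (2.29 to 2.43) against 2.03 (2.01 to 2.07) in the other genes, at a lower median expression, 2.42 against 4.90 FPKM in shNC_input. Their share with an FDR of at most 0.05 was alike, 32.1% and 32.6%.

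One control-only peak was held by 3164 genes, 2 by 1106, 3 by 346 and 4 or more by 165. PCDHA6 and SYNC had 9 each, and PCDHGA2, RAD50 and ADCY7 had 8 each. All peaks of PCDHA6 and of PCDHGA2 chained together at 1 place each, while those of SYNC, RAD50 and ADCY7 lay at several places, and no other region held more than 3. Protocadherin α and γ genes are each known to share their last exons. The peaks of RAD50, of the double-strand break repair complex, had fold enrichments of 1.20 to 3.82, and the gene stood at 12.8 FPKM in shNC_input and 0.691 FPKM in shY2-2_input. Over the whole set, 693 control-only peaks (9.67%) overlapped another one, and the 7167 peaks made 6806 separate regions. With overlapping peaks counted once, the control-only share was 39.6%.

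Among genes with a symbol outside chromosome 8, the longest control-only peaks were in E2F3, a transcription factor of the cell cycle (1403 nt at 2.12-fold, FDR 0.000363), ASB6 (1402 nt), C17orf80 (1257 nt), ADAMTS13 (1223 nt, partly under a knockdown peak of REXO4 on the other strand) and IST1 (1200 nt at 4.50-fold, FDR 2.51e-11). E2F3 was at 7.23 FPKM in the control input and 2.68 FPKM in the knockdown input, a log2 FPKM ratio of −1.16.

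The RNA of genes with a control-only 3′ UTR peak was, in the middle of the distribution, slightly lower in knockdown than in control cells. Among 12268 genes with 1 FPKM or more in at least 1 input, 4143 had such a peak, and their median log2 FPKM ratio of shY2-2_input over shNC_input, with a pseudocount of 1, was −0.07 (−0.09 to −0.06). It was 0.03 in genes with a shared and −0.04 in genes with a knockdown-only 3′ UTR peak, −0.02 in genes with no peak in either list, and 0.00 over all genes kept. The median was −0.12 (−0.15 to −0.09) in the 1109 genes whose 3′ UTR peaks were all control-only, with no knockdown 3′ UTR peak, and −0.13 (−0.17 to −0.09) in the 677 with no knockdown peak anywhere. These medians are small beside the spread of the genes, since the middle 50% of the 4143 ran from −0.33 to 0.16.

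A log2 FPKM ratio above 1 was reached by 20 of the 4143 genes (0.483%), beside 0.986% of all genes kept, and one below −1 by 103 (2.49%), beside 2.14%. In genes with a knockdown-only 3′ UTR peak these shares were 0.483% and 1.66%. The peak calls use the input libraries too, so lower RNA of a gene and the absence of a knockdown peak in it cannot be told apart here.

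The highest ratios belonged to SPATA2, an adaptor of the TNF receptor pathway, at 1.02 and 6.63 FPKM in the control and knockdown input (log2 ratio 1.92), MED29, a Mediator subunit, at 7.82 and 30.6 FPKM (1.84), and SLC9A3R1, a PDZ scaffold also called NHERF1, at 7.34 and 25.7 FPKM (1.68). Their control-only peaks were weak, at 2.29-fold, 1.20-fold and 1.19-fold with FDR values of 0.251, 0.299 and 0.0589. Among the lowest were those of RAD50 (−3.03), of C3, the central complement protein, at 15.1 and 2.45 FPKM (−2.22), and of KIF5B, the kinesin-1 heavy chain, at 48.6 and 13.4 FPKM (−1.79).

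**Figure D5:**
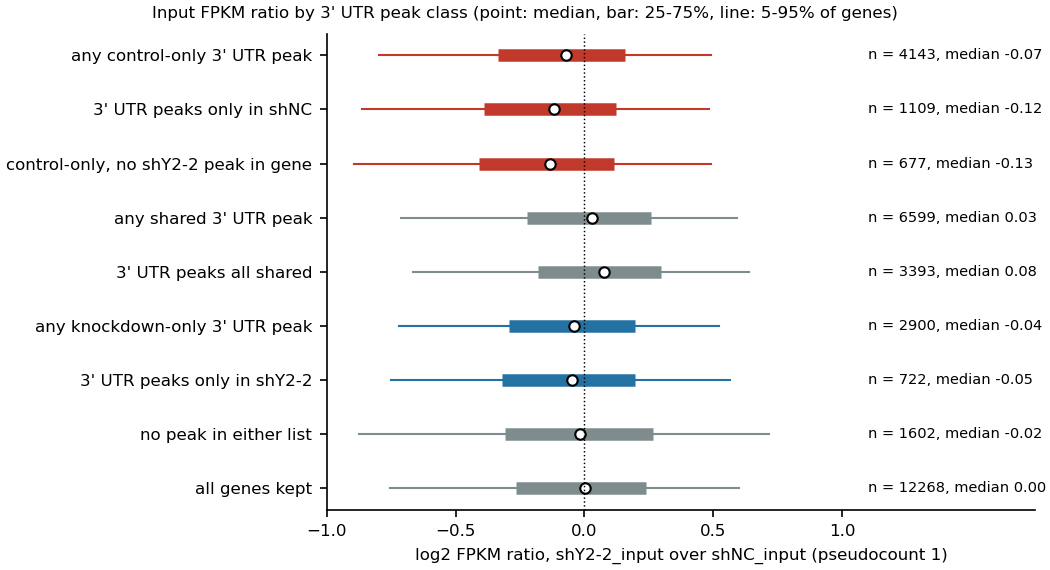
Log2 FPKM ratio of shY2-2_input over shNC_input (horizontal axis, pseudocount 1) for genes grouped by the class of their 3′ UTR peaks; points are medians, thick bars the middle 50% of genes and thin lines the range from the 5th to the 95th percentile. The 3 classes with control-only peaks have medians of −0.07, −0.12 and −0.13, and every class spans 0.

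Gene lists were set beside the whole: of 8330 kept genes with any control 3′ UTR peak, 4143 (49.7%) had a control-only one. By FPKM in shNC_input the share was 63.6% of genes from 1 to under 3, 55.2% from 3 to under 10, 38.9% from 10 to under 30 and 23.8% at 30 or more, so the median FPKM of a list stands with its count. List genes named below are those of the naming rule and others chosen after their values were seen, and no test between lists was made. The counts take control-only peaks at any FDR, and 67.5% of all 7167 such peaks were above 0.05. They were not matched for the number of control 3′ UTR peaks per gene.

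Genes of the m6A machinery itself had a control-only peak in 14 of 26 with a control 3′ UTR peak (53.8%; 35.5 to 71.2), at a median of 8.46 FPKM in shNC_input. The writer subunit METTL14 had 2 such peaks of 3 (lowest FDR 0.095), and METTL16, which methylates a hairpin of the MAT2A mRNA, 2 of 7 (lowest FDR 0.00045). The reader IGF2BP1 had 4 of 5 (lowest FDR 0.0063), at 13.2 and 22.4 FPKM in the control and knockdown input. YTHDF3 had 2 of 4 (lowest FDR 0.0017), and YTHDC1 2 of 2 (lowest FDR 0.18) with no knockdown 3′ UTR peak. The erasers ALKBH5 and FTO each had 1 of 2, with FDR values of 0.021 and 0.081. None of the log2 FPKM ratios of these 14 genes passed 1 or −1, beside 0.483% above 1 and 2.49% below −1 of all 4143 genes with a control-only peak.

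Genes of deadenylation, decapping and decay had a control-only peak in 28 of 45 (62.2%; 47.6 to 74.9), at a median of 8.90 FPKM. The CNOT genes, which encode the deadenylase that YTHDF2 recruits, were singled out after their values were seen. Of 11 with a control 3′ UTR peak, 10 had a control-only one, beside 49.7% of 8330 kept genes with a control 3′ UTR peak. Counted by peak, CNOT10 had 2 control-only of 4 control 3′ UTR peaks and CNOT7 2 of 3. CNOT3 and CNOT6L had 1 of 3 each, and CNOT2, CNOT4, CNOT6, CNOT8 and CNOT11 1 of 2 each. Over all control 3′ UTR peaks 39.0% were control-only. Their lowest FDR was 0.88 in CNOT2, 0.29 in CNOT4, 0.26 in CNOT3, 0.21 in CNOT6 and 0.10 in CNOT8. It was 0.095 in CNOT7, 0.058 in CNOT10, 0.021 in CNOT6L, 0.0050 in CNOT11 and 0.00054 in CNOT1. CNOT1, the scaffold of the deadenylase, had a single control 3′ UTR peak, at 1.48-fold and without a counterpart. UPF2, of nonsense-mediated decay, had one at 2.60-fold (FDR 5.6e-07), PATL1, which links deadenylation to decapping, one at 1.78-fold (FDR 1e-05), and XRN1, the 5′ to 3′ exonuclease, one at 3.56-fold (FDR 0.21). All 28 ratios lay between −1 and 1, where only 0.483% of all 4143 genes with a control-only peak were above 1 and 2.49% below −1.

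Wnt signalling genes, the pathway the study followed up, had a control-only peak in 22 of 44 (50.0%; 35.8 to 64.2), at a median of 7.51 FPKM. The co-receptor LRP6 had 5 control 3′ UTR peaks, all control-only, and 1 knockdown 3′ UTR peak, with a lowest FDR of 0.00043, at 11.1 and 7.27 FPKM. CSNK1E, a casein kinase of the pathway, had 3 of 6 (lowest FDR 0.021), and the destruction complex scaffold AXIN2 1 of 4 at 3.43-fold (FDR 0.14). AXIN1 itself had no control 3′ UTR peak and 2 in the knockdown list. Of the 22, only BCL9, a β-catenin cofactor, passed a ratio of 1, at 2.57 and 7.13 FPKM (1.19). Over all 4143 genes with a control-only peak, 0.483% passed it. Looked up as well were 10 genes the study names: YTHDF2, AXIN1, PGD, FN1, MMP2, MMP7, CD44, JUN, MYC and CTNNB1. AXIN1 and MMP2 had no control 3′ UTR peak. Of the rest, only CD44, an adhesion receptor and Wnt target, had a control-only one, of 61 nt at 1.19-fold (FDR 0.129). Its midpoint lay 1872 nt after the stop codon, with 568 nt to the nearest knockdown peak.

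TGF-β and BMP genes had one in 17 of 33 (51.5%), at a median of 6.29 FPKM. A ratio below −1 was held by 2 of the 17, beside 2.49% of all 4143 genes with a control-only peak. These were the ligand BMP4 (5.35 and 1.90 FPKM) and the corepressor TGIF2 (2.11 and 0.25 FPKM). SMURF2, a ubiquitin ligase for the receptors, had 4 control-only peaks (lowest FDR 0.078) and no knockdown peak in the gene, at 6.29 and 6.73 FPKM. Of cell cycle and p53 genes 19 of 44 (43.2%) had one, at a median of 8.22 FPKM. The p53 ligase MDM2 had 4 of 6 (lowest FDR 0.00014) and the checkpoint kinase ATR 4 of 4. CDKN1A, the p21 inhibitor, had 1 of 2, at 52.7 and 29.3 FPKM.

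Genes of adhesion, matrix and the epithelial-mesenchymal transition had one in 22 of 40 (55.0%; 39.8 to 69.3), at a median of 17.4 FPKM. These 22 had the lowest median log2 FPKM ratio of the 12 lists, −0.62, with 4 of 22 above 0, beside 42.0% of all 4143 genes with a control-only peak, and 5 below −1, beside 2.49%, among them CTNND1 (p120 catenin, 28.5 and 11.7 FPKM), COL5A1 (4.53 and 1.44 FPKM), OCLN (occludin, 2.55 and 0.715 FPKM) and ITGAV (26.9 and 12.7 FPKM). The 18 genes of the list with control 3′ UTR peaks but no control-only one were low as well, with a median of −0.27 and 3 above 0, beside 2420 of the 4187 such genes over all. For 6 of the 22 no knockdown peak was called in the gene, beside 677 of all 4143. Among the 6 were COL12A1, COL5A1, EPCAM, OCLN and TWIST1. The FDR of the control-only peak was above 0.05 in COL12A1 (0.21) and EPCAM (0.17), while the lowest one was under 0.05 in COL5A1, OCLN and TWIST1. LAMB2, a laminin chain, had the lowest FDR of the list, 7.9e-11, at 4.71-fold, with the midpoint in coding sequence.

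The lists with the highest expression had the lowest shares. NRF2 pathway genes had one in 5 of 29 (17.2%; 7.60 to 34.5), at a median of 67.6 FPKM: AKR1C1, BACH1, GCLC, ME1 and SLC7A11. Cytosolic ribosomal protein genes, with 2 related genes that the name rule takes in, RPL7L1 and RPS27L, had one in 17 of 60 (28.3%; 18.5 to 40.8), at 137 FPKM. Zinc finger genes named ZNF, at a median of 2.51 FPKM, had one in 112 of 187 (59.9%; 52.7 to 66.7), and solute carriers, at 5.81 FPKM, in 77 of 147 (52.4%). Immediate early and other short-lived transcription factor genes had one in 11 of 30 (36.7%; 21.9 to 54.5), at 14.5 FPKM, among them KLF6, KLF10, FOSL2 and SOCS3, and Wnt target genes in 4 of 11, at 15.0 FPKM.

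By chromosome the control-only share ran from 29.8% (27.1 to 32.5) on chromosome 19 to 50.8% (46.7 to 54.8) on chromosome 4 and 57.1% (50.8 to 63.2) on chromosome 13.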

How the data were processed

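Labels and the study's methods state that strand-specific paired-end libraries of poly(A) RNA were mapped to GRCh38 with HISAT2. The authors called peaks with exomePeak from each IP and input pair, annotated them with ChIPseeker and computed FPKM from the inputs with StringTie. Tool versions were not given in the sources used here. The deposited peak lists hold, for each peak, a p-value, log10 p and log10 FDR columns (treated as a score, since the lowest are beyond any log range) and a fold enrichment ratio, and the deposited gene table holds FPKM. The lists had 31091 and 27355 lines, 31057 and 27344 of them distinct. The strand of a peak is that of its assigned gene, and the strand setting of the peak caller was not given in the sources used here.

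Overlaps, spliced positions and motifs were computed with Python 3.11.15, numpy 2.4.6 and pandas 2.3.3 on GENCODE v44 canonical transcripts and hg38 sequence, and the code was tested on simulated data. Peaks annotated as 3′ UTR were compared by exonic block and strand. Wilson intervals (95%) came from scipy 1.17.1, and intervals of medians from order statistics. Log2 FPKM ratios used a pseudocount of 1, which understates changes of low genes, and genes with at least 1 FPKM in at least 1 input. The members, gene lists and rules were chosen with earlier results of these data known. Named were, outside chromosome 8, the 15 highest fold enrichments with FDR of at most 0.05 and 5 in genes under 1 FPKM, the 5 genes with the most peaks, the 5 longest peaks, the 4 highest per list, extreme FPKM ratios, genes of the study and peaks at the edge of the rule. A set of 10 with the lowest FDR was added after values were seen. A few genes that these rules name are not reported here. No test between conditions was possible with 1 library per group.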

Additional observations from a re-analysis of the deposited data

How the results depend on the processing

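Limits of these values are the single library per group, the unknown depth and the permissive peak lists. No paired analysis was possible because each condition has 1 IP and 1 input library and no result comes from a test. Of 40 alternative settings over 7 results, 28 were listed at the start and 12 were chosen after seeing the data, and 17 stayed inside the interval of the reported value. No median log2 ratio changed sign.

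The control-only share of 39.0% became 37.9% with overlap on either strand, 38.3% with introns included, 50.7% when at least 50% of the control peak had to be covered and 36.6% when a knockdown peak within 100 nt counted. It was 28.3% in genes of at least 5 FPKM in both inputs, 21.0% and 8.43% for control peaks with FDR of at most 0.05 and 0.001, but 34.9% when both lists were held to 0.05. The median fold enrichment became 1.72 in genes of at least 5 FPKM, and the median length 300 nt at FDR of at most 0.05. The GGAC share of 28.5% became 47.8% in 200 nt windows, 48.2% over whole peaks, 30.1% at FDR of at most 0.05 and 26.1% for midpoints in the reference 3′ UTR. The share of midpoints in the reference 3′ UTR, 62.2%, became 70.1% on the transcript with the longest 3′ UTR, 59.1% at FDR of at most 0.05 and 69.1% by any overlap. The share of genes with another knockdown peak, 78.7%, became 53.8% with both lists at FDR of at most 0.05, 91.1% at 5 FPKM or more and 79.9% without peaks under a knockdown peak on the other strand. The median log2 FPKM ratio of −0.07 became −0.089 with a pseudocount of 0.1, −0.10 at FDR of at most 0.05 and −0.12 in genes whose 3′ UTR peaks were all control-only. Causes of these shifts were not tested beyond the construction of each setting.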
